A study of Mus musculus with 25 samples.

Results

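The 36 genes described here are macrophage migration inhibitory factor (Mif) and every gene of the count table whose name begins with Ccl or Cxcl and a number, the names given to the CC and CXC chemokines. They were picked by name from 36333 genes and not by their values. The study followed hepatoblastomas (HBs) that arose in livers of FVB mice after Sleeping Beauty vectors were given through the tail vein, by hydrodynamic injection, that code for a β-catenin with an in-frame deletion (Δ(90)) and for YAP S127A, the Hippo pathway effector with a mutated serine, and it asked how feeding dodecanedioic acid (DDDA), a dicarboxylic fatty acid, changed them. RNA-seq libraries from 4 groups of 5 were used: livers of uninjected mice on standard diet, HBs of injected mice on standard diet, livers of uninjected mice on 10% DDDA, and HBs of injected mice on 10% DDDA for 3 to 4 weeks. The livers were thus never exposed to the vectors, and the study took the RNA of HBs from parts of the tumor that looked healthy. The labels name no age, and males made up 2, 3, 3 and 1 of the 5 mice in these groups in the order given. Each library is called by the ID its label carries. Whether all came from separate mice is not stated there, so p-values measure the spread between these libraries.

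Chemokines are small secreted proteins that guide leukocytes along concentration gradients through G protein-coupled receptors. CXC chemokines with a glutamate-leucine-arginine (ELR) motif draw neutrophils through CXCR2, the interferon-induced ligands of CXCR3 draw activated T and NK cells, and the inflammatory CC ligands, such as those of CCR1, CCR2 and CCR3, draw monocytes and eosinophils. Other family members act at rest, such as Cxcl12, the ligand of CXCR4 that holds hematopoietic cells in their niches, and Ccl19 and Ccl21, which guide dendritic cells and T cells through CCR7. Mif is not a chemokine by structure. It is a cytokine with tautomerase activity that signals through Cd74 with Cd44 and also binds CXCR2 and CXCR4. In liver, hepatocytes, cholangiocytes, Kupffer cells, endothelium and stellate cells can all be sources of these proteins.

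Levels are given as TMM CPM, which are counts scaled to a common library size with the trimmed mean of M-values (TMM) correction for composition over the 20 libraries. The libraries held 16548771 to 29783324 counts. The TMM factors ran from 0.698 to 0.888 in livers and from 1.09 to 1.41 in HBs, and against library totals alone the median of all genes was 0.71 higher in HBs than in livers on standard diet and 0.73 higher on DDDA (log2), so every comparison of HB with liver below is relative to that shift. By the column headers, 1 flow cell carried the 10 standard diet libraries and 2 different ones the 10 on DDDA. Diet therefore cannot be told apart from the run, nor tissue from the lane, since no lane held both tissues. Livers and HBs fit their labels by markers: the summed level of 9 hepatocyte genes was 77530 to 147300 TMM CPM in livers and 18540 to 46300 in HBs, and that of 7 cholangiocyte genes, which are also progenitor genes, was 25.9 to 41.2 in livers and 110 to 1597 in HBs.

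Of the DDDA libraries, HB DT2264 and liver DL02 stood apart for chemokines. Among the 31 members with at least 10 counts over the HBs on DDDA, DT2264 was the highest library of its group for 21, and among the 23 such members in livers on DDDA, DL02 was the highest for 16. The level in DT2264 was 22.6 (Ccl6), 16.4 (Ccl7) and 6.95 (Cxcl14) times the mean of the other 4 HBs on DDDA. For Ccl3 it was 54.9 times, over a mean of 0.106 TMM CPM. That mean lies within the 0.0823 to 0.147 TMM CPM that 3 counts correspond to in these HBs, so this fold is uncertain. In DL02 the level was 28.9 (Cxcl13), 18.9 (Cxcl1) and 17.2 (Cxcl9) times the mean of the other 4 livers on DDDA. The summed levels of some other cells' markers were high in the same libraries, and those of others were not. Neutrophil genes (8 listed) summed to 193 TMM CPM in DT2264 and 205 in HB DT2277 against 0.489 to 3.27 in the other 3 HBs on DDDA, and to 125 in DL02 against 0.727 to 3.34 in the other livers on DDDA. Monocyte genes (4 listed) summed to 171 in DT2264 and 42.4 in DT2277 against 6.07 to 12.3 in the other HBs on DDDA. In DL02 they summed to 34.2 against 2.58 to 5.99 in the other livers on DDDA. Stellate cell genes (9 listed) summed to 2995 in DT2264 against 63.8 to 538 in the other HBs on DDDA. In DL02 they summed to 297, within the 257 to 382 of the other livers on DDDA. DL02 was the lowest liver on DDDA for endothelial genes, at 266 against 272 to 375. It was also lowest for B cell genes, at 1.74 against 2.04 to 2.89. The part of these cells in the results was not tested. Each result on DDDA is therefore also given without these libraries where that changed it.

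**Figure D1:**
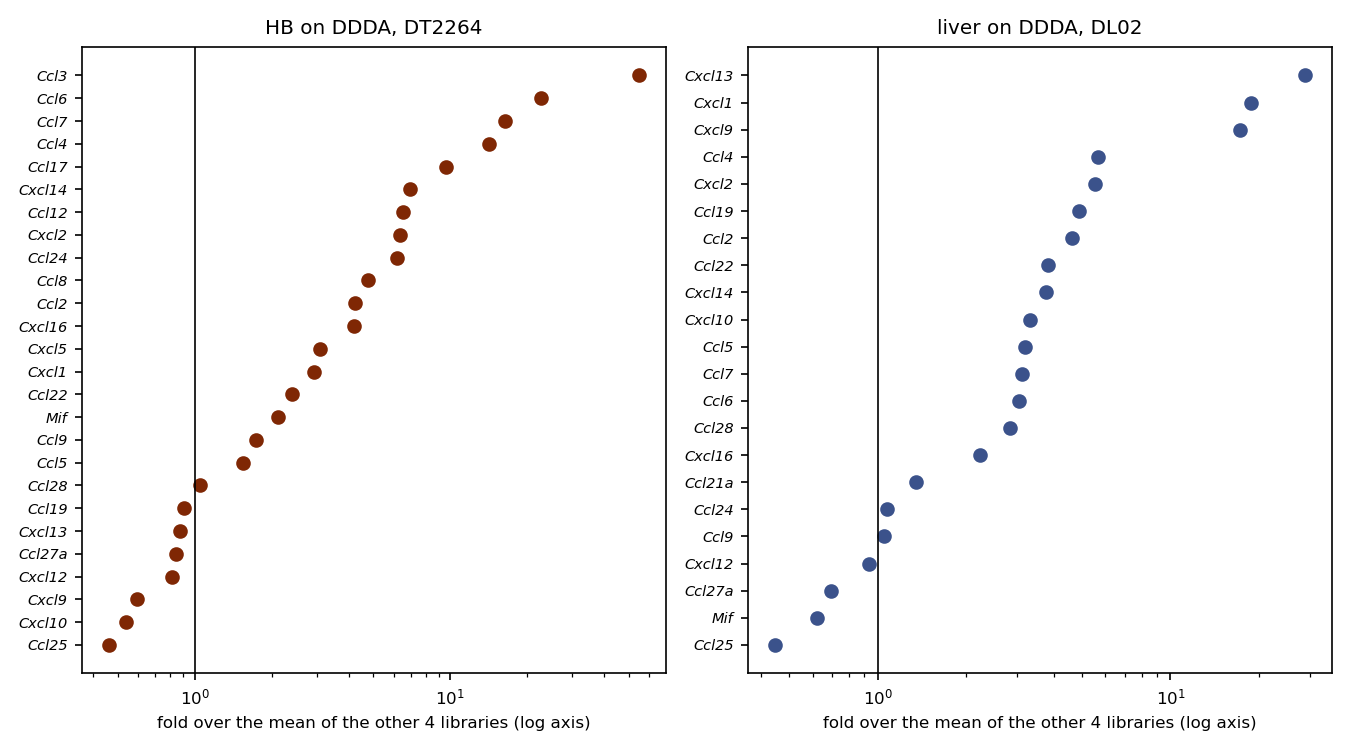
Level of each member in HB DT2264 (left) and liver DL02 (right) as a fold over the mean of the other 4 libraries of the same group, on a log axis, for members whose other libraries averaged at least 0.1 TMM CPM. Ccl3 (54.9, over a mean of 0.106 TMM CPM) and Ccl6 (22.6) lie farthest right in DT2264. In DL02 these are Cxcl13 (28.9), Cxcl1 (18.9) and Cxcl9 (17.2), while Cxcl12 and Ccl27a lie close to or below 1 in both.

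A member was taken as expressed in a group where its median was at least 1 TMM CPM. By this measure 13 members were expressed in livers on standard diet, 17 in HBs on standard diet, 11 in livers on DDDA and 14 in HBs on DDDA, and 19 in at least 1 group. The 10 expressed in all 4 groups were Mif, Cxcl1, Cxcl9, Cxcl10, Cxcl12, Cxcl16, Ccl6, Ccl9, Ccl25 and Ccl27a. Per length, in the deposited RPKM (reads per gene length and library size), Mif was first in all 20 libraries. It averaged 138 ± 10.4 (SD, n = 5) in livers and 137 ± 24.6 in HBs on standard diet, and 159 ± 28.0 and 250 ± 129 on DDDA, and made up 33.6% to 70.1% of the summed RPKM of the 36 genes. Cxcl12 followed at 53.1 ± 4.73 RPKM in livers on standard diet, with Ccl9 next at 21.7 ± 5.47. In HBs on standard diet Cxcl12 averaged 26.1 ± 8.67 and Cxcl16, at 16.8 ± 6.15, was above Ccl9 at 8.42 ± 3.94. HBs on DDDA had Ccl6 next to Mif by mean, at 29.5 RPKM, a mean set by DT2264.

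The remaining members were rare. Cxcl15, an ELR chemokine described in mouse lung, and Ccl26, a CCR3 ligand, had 0 counts in all 20 libraries, where 3 counts, the limit that a count of 0 allows, correspond to 0.0823 to 0.254 TMM CPM per library. Another 11 members did not pass the edgeR filter on low counts in any comparison, with totals over the 20 libraries of 211 for Ccl3, 121 for Ccl8, 97 for Cxcl2, 54 for Cxcl5, 45 for Ccl20, 34 for Ccl11, 29 for Ccl27b, 26 for Cxcl3, 25 for Cxcl17, 10 for Ccl21b and 3 for Ccl1. That left 23 members tested in at least 1 comparison. Counts of some members are uncertain, since Ccl21a and Ccl21b, like Ccl27a and Ccl27b, are near-identical copies on chromosome 4, the Ccl3 and Ccl4 regions overlap by 755 bases on opposite strands of chromosome 11, and Mif has processed pseudogenes. How reads were assigned among these is not given in the sources used here.

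**Figure D2:**
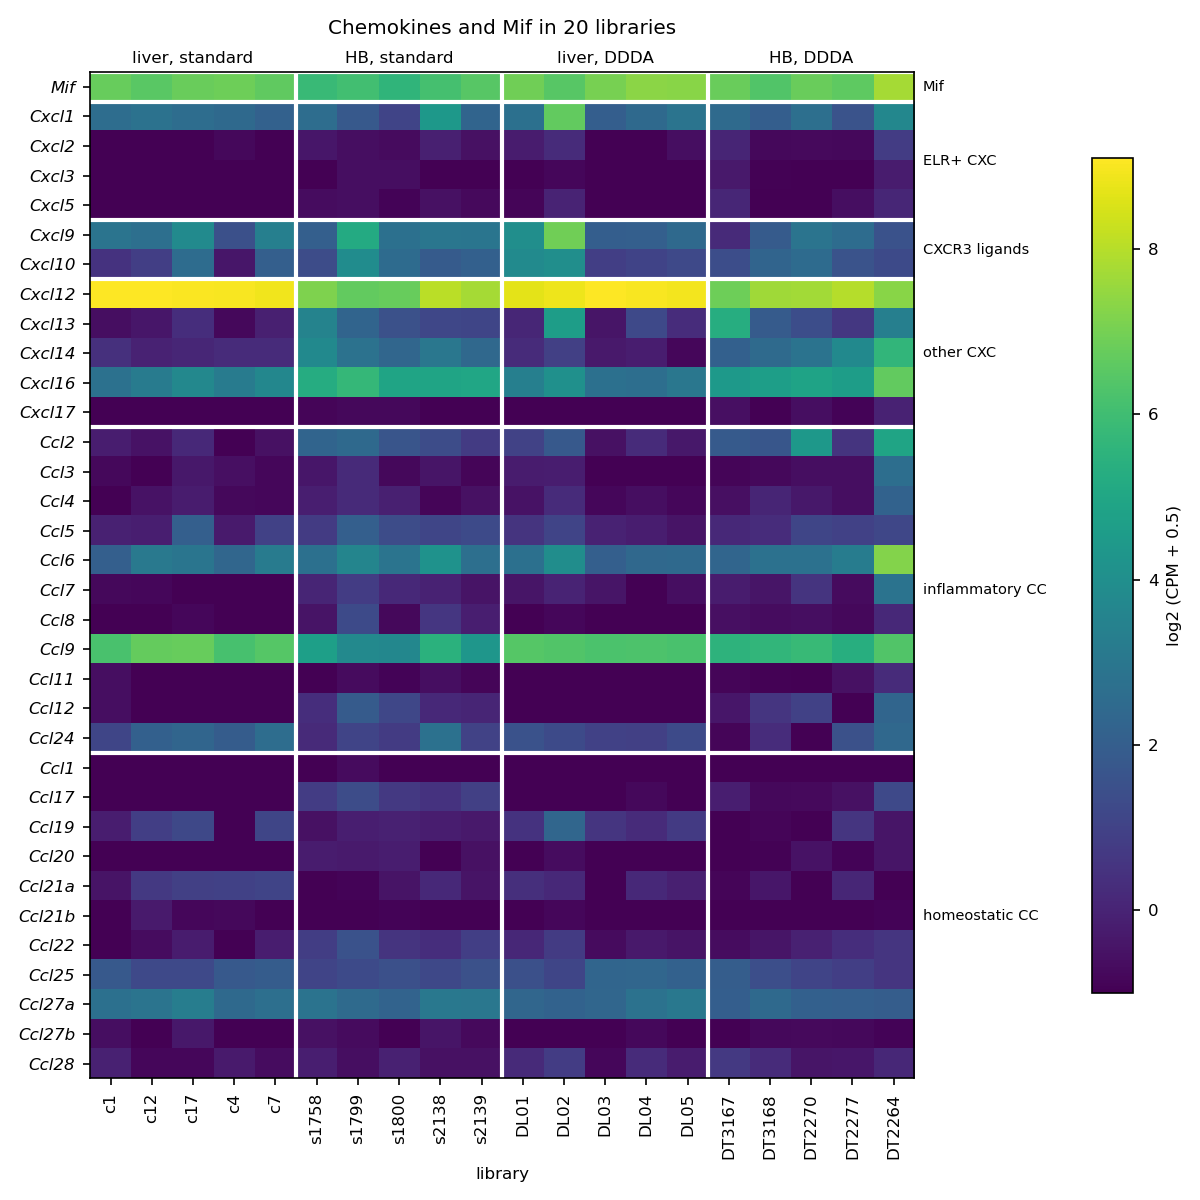
Level of the 34 members with any count in each of the 20 libraries, as log2(TMM CPM + 0.5), with members grouped by role and libraries by group (white lines). Mif, Cxcl12 and Ccl9 are bright in all 4 groups, Cxcl14, Cxcl16 and Ccl2 are brighter in HBs than in livers, and DT2264 and DL02 show as bright columns.

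HBs and livers differed in 7 higher and 4 lower members on standard diet. The tests were edgeR quasi-likelihood tests on all genes kept by its filter on low counts, and a call is a Benjamini-Hochberg adjusted p under 0.05. Of 19 members tested, Cxcl14, Cxcl16, Cxcl13, Ccl2, Ccl12, Ccl17 and Ccl22 were higher in HBs, Cxcl12, Ccl9, Ccl21a and Mif were lower, and 8 did not pass. Over all 13830 genes tested, 28.2% were called higher and 26.8% lower, so the share of members called lies close to that of the whole table. The median log2 fold change of the members was 0.63 against 0.02 for all genes. Setting Ccl17, which had no count in liver, to its lower bound could not move this median, since that bound also lies above it. Each of the 11 calls was kept when any of the 10 libraries was left out. With library totals in place of TMM, 10 members were higher and 3 lower, as were 8776 and 1299 of the 13830 genes, Mif was no longer called and had the opposite sign, and Cxcl10, Ccl6 and Ccl27a were called higher. In bulk tissue, fewer cells of a type and less RNA per cell cannot be told apart.

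On DDDA 3 members were higher and 3 lower in HBs than in livers of 17 tested. Cxcl14, Cxcl16 and Ccl2 were higher and Cxcl12, Ccl9 and Cxcl9 lower, while 26.3% of all 13415 genes tested were higher and 23.4% lower. The median of the members was −0.17 against 0.08 for all genes. Without DL02 and DT2264 the counts were 4 and 3 (3539 and 3103 of all 13409 genes tested). Cxcl14, Cxcl16, Ccl2, Cxcl12 and Ccl9 were called again in the same direction, and Cxcl9 was not (−0.76, adjusted p = 0.396). Cxcl13 (3.82, adjusted p = 0.0298) and Mif (−0.46, adjusted p = 0.0224) were called as well. With library totals 4 were higher, Ccl6 among them, and 1, Cxcl12, was lower, as were 7966 and 1152 of the 13415 genes. Cxcl14, Cxcl16, Ccl2, Cxcl12 and Ccl9 were thus called in the same direction on both diets, in comparisons that share no library. The share of all genes called so on both diets was not computed. On DDDA the call of Ccl9 was lost in 9 of the 10 fits that left out 1 library. That of Ccl2 was lost in 4.

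**Figure D3:**
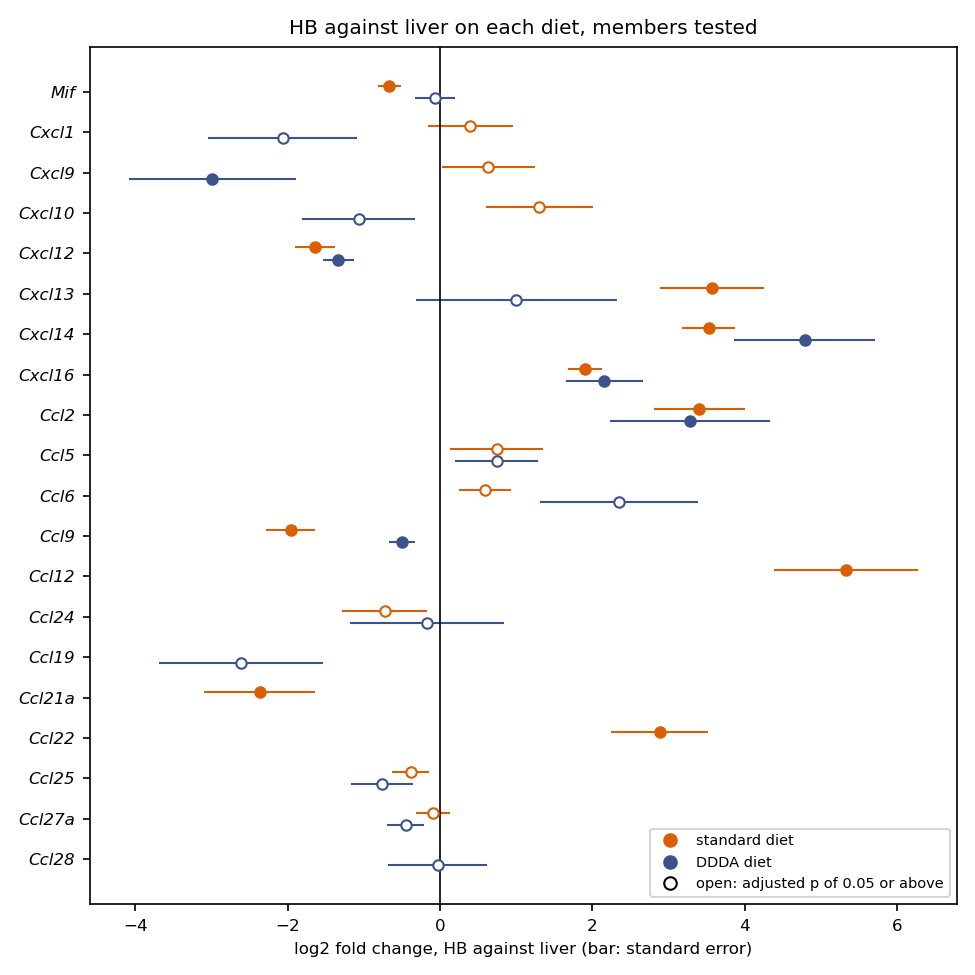
Log2 fold change of HB against liver (point) with its standard error (bar) for the members tested on standard diet (orange) and on DDDA (blue), filled where the adjusted p was under 0.05 and open otherwise. Ccl17 is left out because its fitted fold against 0 counts is no measure of size. Cxcl14 reads 3.53 and 4.79 and Cxcl12 −1.64 and −1.34 on the 2 diets, and the bars of Cxcl9, Cxcl1, Cxcl13 and Ccl6 are wider on DDDA.

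Among the CXC chemokines without an ELR motif, Cxcl14 and Cxcl16 rose in HBs and Cxcl12 fell. Cxcl14 (chr13:56288643-56296794, minus strand of GRCm38), an epithelial chemokine with antimicrobial activity, read 0.835, 0.474, 0.553, 0.678 and 0.676 TMM CPM in livers c1, c12, c17, c4 and c7 on standard diet and 13.6, 6.46, 4.56, 7.60 and 4.88 in HBs s1758, s1799, s1800, s2138 and s2139. The groups did not overlap, and the log2 fold change was 3.53 ± 0.35 (SE; adjusted p = 1.13e-05). On DDDA it read 0.0727 to 1.37 in livers, with DL02 the highest, and 3.73, 5.10, 6.75, 13.3 and 50.2 in HBs DT3167, DT3168, DT2270, DT2277 and DT2264, again with no overlap. The fold change was 4.79 ± 0.93 (adjusted p = 0.00179), 3.67 at the lowest with any single library left out, and 4.29 without DL02 and DT2264.

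Cxcl16 (chr11:70454232-70459984), a membrane-bound ligand of CXCR6 that also serves as a scavenger receptor for oxidized lipoprotein, read 6.23, 8.59, 12.7, 8.73 and 12.2 TMM CPM in livers and 38.1, 52.5, 29.0, 29.6 and 31.0 in HBs on standard diet, in the library order above. Every HB was above every liver, with a log2 fold change of 1.90 ± 0.23 (adjusted p = 3.67e-05). HBs on DDDA read 21.0, 24.7, 28.4, 24.2 and, in DT2264, 103, and livers on DDDA read 5.78 to 16.4. These groups did not overlap either, and the fold change was 2.16 ± 0.51 (adjusted p = 0.00533) and 1.78 (adjusted p = 0.000123) without DL02 and DT2264. DESeq2 gave no adjusted p for Cxcl16 in this comparison.

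Cxcl12 (chr6:117168535-117181368), the chemokine with the highest mean RPKM in both groups of livers, was lower in every HB than in every liver of the same diet. It read 548, 550.4, 524, 515 and 478 TMM CPM in livers and 143, 101, 107, 269 and 216 in HBs on standard diet, a log2 fold change of −1.64 ± 0.26 (adjusted p = 0.000284). On DDDA it read 411, 456, 547, 515 and 482 in livers DL01 to DL05 and 116, 202, 207, 250.3 and 158 in HBs, a fold change of −1.34 ± 0.20 (adjusted p = 0.000442). Neither DL02 nor DT2264 stood apart for it. Endothelial genes (8 listed) were lower in most HBs too. They summed to 335 to 469 TMM CPM in livers and 107 to 258 in HBs on standard diet. On DDDA they summed to 266 to 375 in livers and 46.4 to 164 in HBs apart from 543 in DT2264. On either diet 4 of the 8 were lower (Stab2, Clec4g, Kdr and Tek) and 4 did not pass. Of all genes, 26.8% were lower on standard diet and 23.4% on DDDA. Single HBs did not all follow: s2138 was highest on standard diet for both the sum and Cxcl12. HB s1799 summed to 232 at the lowest Cxcl12, 101. Hepatocyte genes were lower too, 8 of the 9 tested on standard diet and 6 on DDDA. The part of these cells in the fall of Cxcl12, and in those of Ccl21a, Ackr1 and Ackr4 given below, was not tested. The fall held with library totals, at −0.99 (adjusted p = 0.00181) and −0.69 (adjusted p = 0.00725). Its receptor Cxcr4 moved the other way: it averaged 0.707 ± 0.284 TMM CPM in livers and 4.59 ± 2.33 in HBs on standard diet, a log2 fold change of 2.68 ± 0.40 (adjusted p = 0.000187).

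Cxcl13, the B cell attractant that binds CXCR5, read 0.0847 to 0.760 TMM CPM in livers on standard diet and 10.97, 4.25, 2.38, 1.72 and 1.67 in HBs, a log2 fold change of 3.57 ± 0.68 (adjusted p = 0.000994). On DDDA its groups overlapped with or without DL02, which read 24.2 against 0.244 to 1.82 in the other livers, while HBs ranged from 1.07 to 38.4 with DT3167 the highest. The fold change there was 1.0003 ± 1.32 (adjusted p = 0.552). Cxcl17, a mucosal chemokine, had counts in HBs alone, 5 in all on standard diet and 20 on DDDA, against 0 in both sets of livers. DT2264 held 12 of the 20.

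**Figure D4:**
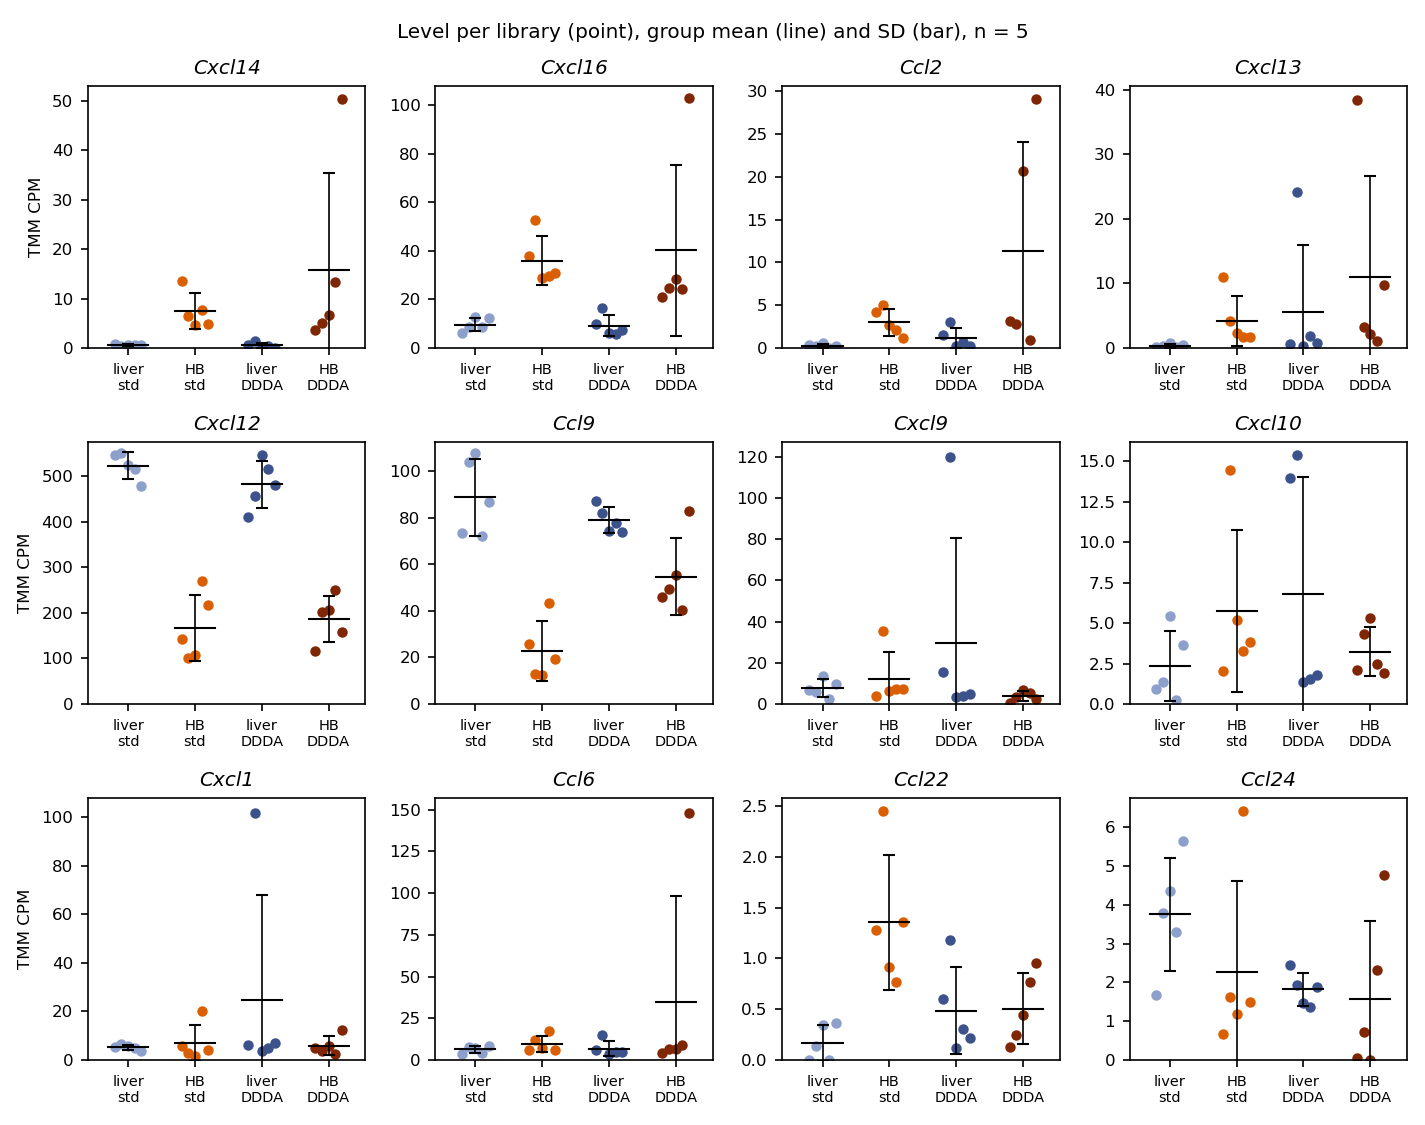
Level of 12 members in TMM CPM in each library (point), with the mean (line) and SD (bar) of each group of 5, on linear axes that start at 0, below which bars are not drawn. HBs are above livers on both diets for Cxcl14 and Cxcl16 and below them for Cxcl12, and the single high points are DT2264 (Cxcl14, Cxcl16 and Ccl6), DT3167 (Cxcl13), DL02 (Cxcl1 and Cxcl9) and s1799 (Cxcl9 on standard diet).

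Of the inflammatory CC chemokines, Ccl2 and Ccl12 rose and Ccl9 fell in HBs. Ccl2 (chr11:82035577-82037452), the main attractant of monocytes through CCR2, read 0.380, 0.203, 0.622, 0 and 0.184 TMM CPM in livers and 4.23, 4.99, 2.65, 2.06 and 1.18 in HBs on standard diet. The log2 fold change was 3.40 ± 0.60 (adjusted p = 0.000555) with no overlap. On DDDA livers read 0.183 to 3.05 and HBs 3.12, 2.77, 20.6, 0.917 and 29.1, so that HBs DT2277 and DT3168 lay within the livers' range. The fold change was 3.29 ± 1.05 (adjusted p = 0.0239), and the adjusted p rose to 0.051 without DL03, 0.0569 without DL04, 0.0543 without DL05 and 0.0543 without DT2264. Ccr2, its receptor, averaged 1.15 ± 0.542 in livers and 11.8 ± 3.64 in HBs on standard diet (log2 fold change 3.35 ± 0.35, adjusted p = 1.43e-05), and on DDDA the change was 1.60 ± 0.69 (adjusted p = 0.0768).

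Ccl12, a mouse CCR2 ligand in the same cluster as Ccl2 on chromosome 11, had 2 counts over the 5 livers on standard diet and 176 over the 5 HBs. The ratio of TMM CPM was 52.1 (95% exact interval 14.2 to 433, which covers counting error only), the edgeR adjusted p was 0.000595, and the HBs read 0.542 to 3.26. On DDDA it had 0 counts in livers and 181 in HBs, at least 36.5-fold higher against a floor of 3 counts over the group. DT2264 held 110 of the 181, at 4.37 TMM CPM against 0 to 1.42 in the other HBs on DDDA, and DT2277 had no count. Ccl12 did not pass the edgeR filter there. It was called higher by DESeq2 (adjusted p = 0.00014), by edgeR without the filter (adjusted p = 0.0187) and with all 20 libraries in 1 fit (adjusted p = 0.00146). All of these fits included DT2264. Ccl7 and Ccl8 of the same cluster (chr11:82035577-82179812, 6 members) were filtered out on standard diet as well, with 77 counts against 2 and 89 against 1 in HBs and livers. DESeq2 and edgeR without the filter called both of them higher in HBs on standard diet. On DDDA Ccl7 was called higher by DESeq2 (adjusted p = 0.0215) and with all 20 libraries in 1 fit (adjusted p = 0.0182). Ccl8 was called higher there by DESeq2 (adjusted p = 0.0122) and by edgeR without the filter (adjusted p = 0.02). DT2264 held 169 of the 208 counts of Ccl7 in HBs on DDDA, and 16 of the 30 of Ccl8.

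Ccl9 (chr11:83572917-83578636), a ligand of CCR1 in the mouse, had the highest mean RPKM of the CC chemokines in livers on both diets. Livers on standard diet read 73.6, 104, 108, 72.0 and 86.8 TMM CPM and HBs 25.6, 12.98, 12.3, 43.4 and 19.2, a log2 fold change of −1.96 ± 0.32 (adjusted p = 0.000353) with no overlap. On DDDA livers read 87.1, 82.1, 74.3, 77.7 and 73.7 and HBs 45.9, 49.4, 55.4, 40.2 and 82.8, so only DT2264 reached the livers. The fold change was −0.50 ± 0.17 (adjusted p = 0.0339). It lost its call on leaving out any single library but DT2264 (adjusted p up to 0.101), became −0.67 (adjusted p = 0.00109) without DL02 and DT2264, and turned to 0.16 (adjusted p = 0.525) with library totals. Ccr1, its receptor, was higher in HBs on both diets, at 4.11 ± 0.47 (adjusted p = 2.51e-05) and 4.17 ± 1.11 (adjusted p = 0.00989) on the log2 scale.

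Ccl6, encoded beside Ccl9 and also a mouse CCR1 ligand, did not pass. It read 3.72 to 8.60 TMM CPM in livers and 5.97 to 17.1 in HBs on standard diet, and 4.47, 6.37, 6.41, 8.98 and 148 in HBs on DDDA. That mean of 34.9 ± 63.4 (SD, n = 5) rested on DT2264. With all 20 libraries in 1 fit, DT2264 among them, Ccl6 was called higher in HBs on DDDA (2.34, adjusted p = 0.0205). Ccl5, the T cell attractant RANTES, averaged 1.26 ± 1.42 and 2.11 ± 0.952 in livers and HBs on standard diet with an adjusted p of 0.322. Without c17 it was called higher in HBs (1.65, adjusted p = 0.0171). Ccl24, the eosinophil attractant eotaxin-2, averaged 3.75 ± 1.46 and 2.27 ± 2.34 with an adjusted p of 0.287. It was called lower in HBs on standard diet without s2138 (−1.56, adjusted p = 0.00516). On DDDA it was called lower without DT2264 and DT2277 (−2.64, adjusted p = 0.0389).

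The dendritic cell chemokines Ccl17 and Ccl22, ligands of CCR4 that are neighbours on chromosome 8 (chr8:94745684-94812038), were both higher in HBs on standard diet. Ccl17 had no count in any liver and 0.908, 1.11, 1.23, 1.40 and 2.05 TMM CPM in HBs s2138, s1800, s1758, s2139 and s1799, at least 32.2-fold higher against 3 counts over the livers (adjusted p = 7e-05). Ccl22 read 0 to 0.368 in livers and 0.765 to 2.46 in HBs, without overlap (log2 fold change 2.88 ± 0.64, adjusted p = 0.00258). On DDDA neither passed the filter in this comparison. HBs then read 0.0823 to 0.391 for Ccl17 apart from 1.83 in DT2264. Of the livers DL04 read 0.0760 and the other 4 had no count, which allows up to 0.15 to 0.228, so single libraries are not separated. Over the groups Ccl17 had 65 counts in HBs, 46 of them in DT2264, against 1 in livers. The ratio was 39.3 (95% exact interval 6.82 to 1577). Ccl17 was called higher by DESeq2 (adjusted p = 0.00234), by edgeR without the filter (adjusted p = 0.0148) and with all 20 libraries in 1 fit (adjusted p = 0.00277). For Ccl22 the HBs at 0.130 to 0.954 overlapped with the livers at 0.122 to 1.18. Summed dendritic cell genes (5 listed) came to 7.75 to 11.1 TMM CPM in livers and 10.5 to 26.7 in HBs on standard diet, with 2 of 5 called higher, and their part in these 2 results was not tested. Ccl21a, the lymphatic ligand of CCR7, fell from 1.15 ± 0.546 to 0.223 ± 0.247 TMM CPM in HBs on standard diet (log2 fold change −2.37 ± 0.72, adjusted p = 0.0158). Ccl19, the other ligand of CCR7, was not called by edgeR on DDDA (−2.61 ± 1.07, adjusted p = 0.0642), where livers read 0.684 to 4.55 and HBs 0 to 0.238 apart from 0.994 in DT2277. It was called lower there by DESeq2 (adjusted p = 0.0331), with all 20 libraries in 1 fit (adjusted p = 0.0243), with sex as a covariate (adjusted p = 0.0314) and without DT2277 (adjusted p = 0.00787). Ccl25 and Ccl27a, made by thymus and gut and by skin in the adult, were expressed in all 4 groups at 1.92 to 3.36 and 3.91 to 6.62 TMM CPM and were not called in any of the 5 comparisons. Without DT3167, Ccl25 was called lower in HBs on DDDA (−1.09, adjusted p = 0.0409).

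Of the ELR chemokines and the CXCR3 ligands, Cxcl1, Cxcl9 and Cxcl10 passed the edgeR filter on standard diet and none of these was called there. Cxcl2 and Cxcl5, both neutrophil attractants, had 1 and 0 counts over the livers and 26 and 14 over the HBs. Such counts cannot separate single libraries, since each HB held 3 to 9 counts of Cxcl2 and 1 to 4 of Cxcl5. The limit that a count of 0 allows was 0.184 to 0.254 TMM CPM in these livers, and Cxcl5 read 0.0384 to 0.191 in the HBs. DESeq2 called Cxcl2 higher in HBs (adjusted p = 0.0086), and edgeR without the filter called Cxcl2 (adjusted p = 0.00888) and Cxcl5 (adjusted p = 0.0147). Cxcl1, another neutrophil attractant, had more counts. It read 3.87 to 6.43 TMM CPM in livers and 1.61 to 5.59 in HBs apart from 20.2 in s2138 (adjusted p = 0.568), and HB s2138 also had the highest neutrophil gene sum of its group, 19.1 against 2.73 to 5.80. On DDDA livers read 6.09, 102, 3.59, 4.94 and 6.98, with DL02 the high library, and HBs 2.48 to 12.4 (log2 fold change −2.07 ± 0.98, adjusted p = 0.104). With all 20 libraries in 1 fit, DL02 among them, Cxcl1 was called lower in HBs on DDDA (−2.07, adjusted p = 0.0447). DL02 also had the highest neutrophil gene sum of its group, 125. Among HBs on DDDA, DT2277 had the highest such sum, 205, but the lowest Cxcl1, 2.48. DT2264, with a sum of 193, had the highest Cxcl1, 12.4. A link between Cxcl1 and neutrophil genes was not tested. Cxcl9 read 2.29 to 13.7 in livers and 3.70 to 7.27 in HBs on standard diet apart from 35.4 in s1799. Its call on DDDA (−2.99 ± 1.09, adjusted p = 0.0419) rested on DL02, which read 120.04 against 3.59 to 15.6 in the other livers and 0.651 to 6.85 in HBs; without DL02 it was −0.88 (adjusted p = 0.298), and leaving out DL01 or any of the 5 HBs on DDDA also ended the call, with folds of −3.30 to −2.72. Cxcl10 averaged 2.32 ± 2.17 and 5.76 ± 4.99 in livers and HBs on standard diet (log2 fold change 1.30 ± 0.70, adjusted p = 0.134; 1.82 and 0.00577 with sex as a covariate, 1.87 and 0.0493 without c17) and 6.80 ± 7.19 and 3.23 ± 1.497 on DDDA (adjusted p = 0.256). The samples with the highest Cxcl9 were the highest for Cxcl10 too: c17, s1799, DL02 and DT2270 in their groups.

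The promoters of these inducible genes are shown because Cxcl1 and Cxcl10 differed widely between libraries of 1 group and their promoters hold matches to known response elements. RefSeq (GRCm38.p6) promoter windows, 250 bases before to 50 after the start, were at hand for 26 of the 36 members (32 windows). Each stretch is written 5′ to 3′ on the strand of its gene. In the first 3 the capitals mark matches to the κB consensus, in Cxcl10 they mark 2 κB matches and, before them, the interferon-stimulated response element (GAAA, any pair of bases, GAAA), and in Cxcl14 they mark the latter.
Cxcl1, chr5:90891149-90891209, plus strand: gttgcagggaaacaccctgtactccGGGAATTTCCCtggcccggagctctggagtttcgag
Cxcl2, chr5:90903777-90903837, plus strand: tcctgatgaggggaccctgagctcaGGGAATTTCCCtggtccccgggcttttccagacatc
Cxcl3, chr5:90786003-90786063, plus strand: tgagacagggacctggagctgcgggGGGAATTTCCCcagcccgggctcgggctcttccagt
Cxcl10, chr5:92348973-92349112, minus strand: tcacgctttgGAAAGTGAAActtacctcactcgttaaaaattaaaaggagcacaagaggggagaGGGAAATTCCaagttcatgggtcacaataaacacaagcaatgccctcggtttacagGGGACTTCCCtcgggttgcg
Cxcl14, chr13:56296689-56296748, minus strand: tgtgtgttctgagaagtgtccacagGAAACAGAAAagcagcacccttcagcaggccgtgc
Cxcl1, Cxcl2 and Cxcl3 hold the same 11 letters. A κB match on either strand was found in 7 of the 32 member windows (Cxcl1, Cxcl2, Cxcl3, Cxcl10, Ccl9, Ccl20 and Ccl27a) against 4.51% of all 32851 windows, and the interferon element in 3 (Cxcl10, Cxcl14 and Ccl19) against 3.44%. These matches describe letters only. The shared κB element stood beside unequal levels: in DL02 Cxcl1 read 102 TMM CPM, Cxcl2 0.685 and Cxcl3 0.0623.

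Mif (chr10:75859353-75860250, minus strand) was lower in HBs than in livers on standard diet by TMM CPM, but not by the other scales. It read 108, 90.8, 111, 116 and 100.04 TMM CPM in livers c1, c12, c17, c4 and c7 and 57.5, 66.1, 48.7, 69.2 and 88.5 in HBs s1758, s1799, s1800, s2138 and s2139. The highest HB was just below the lowest liver, the log2 fold change was −0.66 ± 0.15 (edgeR adjusted p = 0.00315), and an exact two-sided permutation test of log2(TMM CPM + 0.5) gave −0.69 with p = 0.00794, the smallest that 5 against 5 allow. The difference was −0.03 in the deposited RPKM (exact permutation p = 0.833), 0.18 in the deposited TPM (p = 0.175 in the same exact test) and 0.01 with edgeR on library totals (adjusted p = 0.926). In RPKM the livers ran from 125 to 152 and the HBs from 111 to 169, so the groups overlapped there.

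On DDDA livers DL01 to DL05 read 119, 88.3, 129, 163 and 158 TMM CPM for Mif and HBs DT3167, DT3168, DT2270, DT2277 and DT2264 read 111, 82.4, 111, 97.0 and 213. The groups overlapped, with a log2 fold change of −0.07 ± 0.26 (adjusted p = 0.846). This sign, too, depended on scale, at 0.55 in RPKM (exact permutation p = 0.0397) and 0.72 in TPM (exact permutation p = 0.00794), and it also turned with sex as a covariate (0.04) and without DL03 and DT3168 (0.03). The group order by mean TMM CPM was HBs on standard diet (66.0 ± 14.9), livers on standard diet (105 ± 9.94), HBs on DDDA (123 ± 51.7) and livers on DDDA (131 ± 30.4). Livers on standard diet overlapped with HBs on DDDA, as did HBs and livers on DDDA.

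Mif's promoter window is printed whole, since Mif had the highest RPKM of the members in every library. The capitals mark its match to GGAATG, the core motif bound by the TEAD partners of YAP, which 14.7% of all windows hold on either strand.
Mif, chr10:75860228-75860527, minus strand: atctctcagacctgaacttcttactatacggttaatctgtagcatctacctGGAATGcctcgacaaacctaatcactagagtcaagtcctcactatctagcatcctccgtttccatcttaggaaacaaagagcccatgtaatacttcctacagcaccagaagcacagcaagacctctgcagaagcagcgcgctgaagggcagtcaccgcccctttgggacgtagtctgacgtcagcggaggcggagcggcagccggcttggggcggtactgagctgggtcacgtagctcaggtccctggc
No TATAAA was found in it on either strand, a motif of 13.6% of all windows and of 9 of the 32 member windows.

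**Figure D5:**
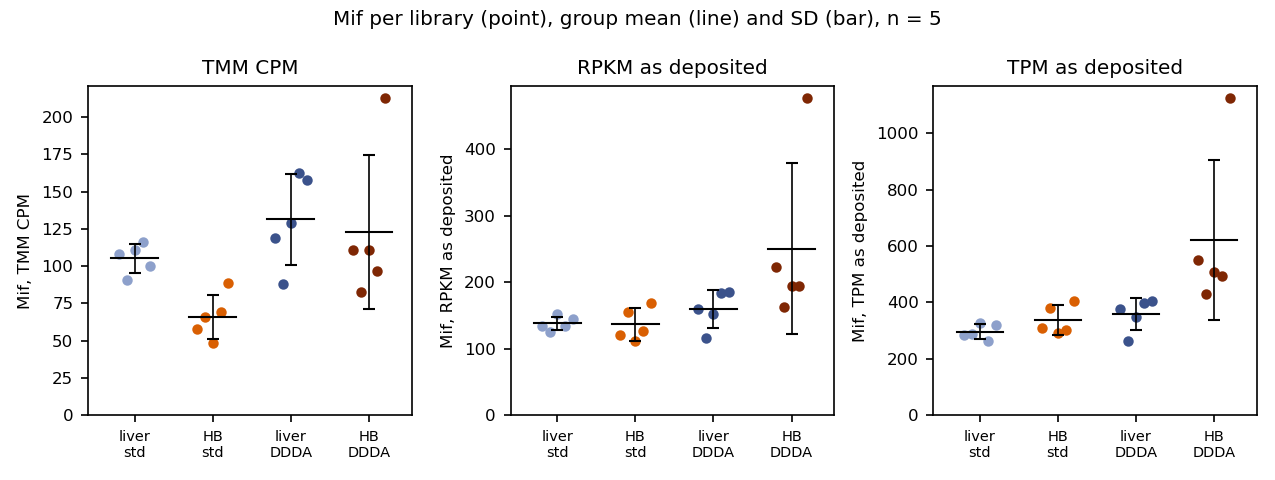
Mif in each library (point) with the mean (line) and SD (bar) of each group of 5, in TMM CPM, in RPKM and in TPM, on linear axes that start at 0. HBs on standard diet lie below livers on standard diet in TMM CPM and level with them in RPKM, the mean of HBs on DDDA lies above that of HBs on standard diet on all 3 scales, and DT2264 is the highest point of each panel.

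Of the 3 genes listed beside Mif (Cd44, Cd74 and Ddt), Cd44 rose and Ddt fell in HBs. Cd44 rose from 6.02 ± 3.66 to 25.6 ± 8.82 TMM CPM in HBs on standard diet (log2 fold change 2.08 ± 0.39, adjusted p = 0.000849) and by 2.55 ± 0.76 on DDDA (adjusted p = 0.0172). Ddt, the paralog of Mif that shares its receptor, was lower by −1.96 ± 0.30 (adjusted p = 0.00021) and −2.35 ± 0.27 (adjusted p = 9.66e-05). Cd74, the receptor chain that binds Mif, did not pass on either diet (0.74 ± 0.60 and 0.47 ± 0.60).

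DDDA changed no member past the threshold, in HBs or in livers. In HBs, 21 members were tested and 0 called by edgeR, where 0.0994% of all 14082 genes were called higher and 0.199% lower. At an unadjusted p under 0.05 there were 5 members (16.3% of all genes), and DESeq2 called 1, Ccl9 (4.34% of all genes). The median of the members was 0.15 against 0.06 for all genes. The 5 were Ccl9 (1.27 ± 0.35) and Mif (0.90 ± 0.27), with higher levels on DDDA, and Ccl27a (−0.68 ± 0.22), Ccl22 (−1.42 ± 0.56) and Cxcl9 (−1.72 ± 0.72), with lower levels, all on the log2 scale. Ccl9 ranged from 12.3 to 43.4 TMM CPM on standard diet and from 40.2 to 82.8 on DDDA, so that only s2138 and DT2277 overlapped (adjusted p = 0.139 by edgeR and 0.0247 by DESeq2). Without DT2264, Ccl17 was called lower on DDDA (−2.84, adjusted p = 0.043), and this was the sole member called on leaving out any library.

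The study picked Mif out on these same libraries, so the values given here are not independent evidence of its direction. HBs ranged from 48.7 to 88.5 TMM CPM on standard diet and from 82.4 to 213 on DDDA, with s2139 and DT3168 overlapping. The edgeR adjusted p was 0.166 and the DESeq2 adjusted p 0.0526, and with all 20 libraries in 1 fit it was 0.0281 at a change of 0.89. The exact permutation test of Mif alone gave a difference of 0.84 with p = 0.0159, and 0.77 in RPKM, 0.80 in TPM and 0.62 without DT2264 were of the same sign. As all HBs on DDDA were sequenced on other flow cells than those on standard diet, the diet's part and the run's part cannot be told apart.

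In livers, 13 members were tested and 0 called by edgeR, where 4.27% of all 12803 genes were higher on DDDA and 3.07% lower. An unadjusted p under 0.05 was reached by 2 members (24.8% of all genes), and DESeq2 called 1 (10.4% of all genes). Ccl24 was this gene: it read 1.67, 3.79, 4.35, 3.31 and 5.65 TMM CPM on standard diet and 2.45, 1.93, 1.46, 1.37 and 1.89 on DDDA, a log2 fold change of −1.03 ± 0.31 (adjusted p = 0.0686 by edgeR and 0.0196 by DESeq2), with c1 the library that overlapped. Without c1 edgeR called it (−1.20, adjusted p = 0.0275). The other was Cxcl1 (2.27 ± 0.93), with 102 TMM CPM in DL02 and 3.59 to 6.98 in the other livers on DDDA. Mif changed by 0.32 ± 0.15 (adjusted p = 0.203), and the exact permutation p of its level was 0.143 with all libraries and 0.00794 without DL02, at a difference of 0.43.

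The response to DDDA was compared between HBs and livers by an interaction term over all 20 libraries. Of 23 members tested 0 were called (0% of all 14502 genes in either direction). The unadjusted p was under 0.05 for 4 members (6.05% of all genes), and DESeq2 called none of them (0.0471% of all genes). These were Ccl9 (1.44 ± 0.385), Ccl22 (−2.85 ± 1.02), Cxcl9 (−3.61 ± 1.29) and Cxcl10 (−2.38 ± 1.09), where a positive value means a higher response in HBs. The lowest adjusted p was 0.609, for Ccl9. For Mif the difference was 0.57 ± 0.31 (adjusted p = 0.866). The 95% interval of the Ccl9 difference was 0.69 to 2.19 on the log2 scale. It is not adjusted for the choice of Ccl9 as the lowest of 23 members, so no difference between tissues is drawn from it.

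Some chemokine receptors were higher in HBs. Of 19 listed, 10 were tested on standard diet and 5 rose (Ccr1, Ccr2, Cxcr4, Cx3cr1 and Ccrl2), with none lower, and on DDDA 4 of 7 rose (Ccr1, Cxcr4, Cx3cr1 and Ccrl2). Over all genes tested, 28.2% were higher and 26.8% lower on standard diet and 26.3% and 23.4% on DDDA. Cx3cr1, the receptor of fractalkine, averaged 2.74 ± 1.19 TMM CPM in livers and 41.8 ± 20.8 in HBs on standard diet (log2 fold change 3.96 ± 0.41, adjusted p = 1.45e-05). Its ligand Cx3cl1, outside the CC and CXC families, went from 1.13 ± 0.580 to 17.1 ± 7.35 (3.89 ± 0.41, adjusted p = 1.54e-05). Cxcr3, the receptor of Cxcl9 and Cxcl10, read 0.735 ± 0.520 and 0.741 ± 0.642 (adjusted p = 0.995). The platelet chemokines Pf4 and Ppbp were higher in HBs on standard diet (2.59 ± 0.39 and 2.07 ± 0.46), and Pf4 also on DDDA (3.68 ± 0.99). Of the 4 atypical receptors that remove chemokines, Ackr1 and Ackr4 were lower on both diets, and Ackr2 was higher on DDDA.

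Genes of the NF-κB pathway, which binds κB elements, are listed beside these because many chemokines are its targets. Of 15 listed, 11 were tested, with 6 higher and 1 lower in HBs on standard diet (28.2% and 26.8% of all genes) and 5 higher and 1 lower on DDDA (26.3% and 23.4% of all genes). Tnfaip3, a feedback inhibitor, changed by 2.26 ± 0.17 and 1.46 ± 0.46, Nfkbie by 2.56 ± 0.21 and 2.37 ± 0.43, and Relb, a subunit of the noncanonical arm, by 2.81 ± 0.34 and 2.28 ± 0.57 (log2, standard diet and DDDA). Il1a was the gene that fell on standard diet and Nfkbia the gene that fell on DDDA. The tests of DDDA covered 11 of the 19 receptors in HBs and 7 in livers, and 11 of the 15 NF-κB genes in each tissue. They also covered the 4 atypical receptors and the 3 genes listed beside Mif. None of the genes tested was called, where edgeR called 0.0994% of all genes higher and 0.199% lower in HBs. In livers these shares were 4.27% and 3.07%. Of other cells' markers, both neutrophil genes tested (S100a8 and S100a9) and both monocyte genes tested (Plac8 and F13a1) were higher in HBs on standard diet, with summed levels of 2.73 to 19.1 against 0.424 to 2.56 for neutrophils and 7.49 to 23.3 against 2.66 to 7.33 for monocytes. Of 10 macrophage genes, Csf1r was higher and the Kupffer cell genes Vsig4 and Timd4 were lower, and the summed levels overlapped (263 to 876 in HBs and 340 to 853 in livers). T and NK cell genes (14 listed) overlapped as well. The neutrophil gene Ly6g had no count in livers or HBs on standard diet. The part of these cells in the chemokine results was not tested.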

How the data were processed

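RNA-seq was used from 20 of the 25 samples, and the 5 HBs kept longer on DDDA were not analysed here. The authors made the deposited counts, RPKM and TPM per gene with CLC Genomics Workbench from oligo(dT)-selected libraries against GRCm38.p6; how reads were counted and whether strand was used: not given in the sources used here. The deposited fold changes and p-values of the authors' own comparisons, and the deposited CPM, were not used. Tests were run on raw counts of all genes with edgeR 4.0.16 (R 4.3.3) after filterByExpr and TMM, on the 2 groups compared or, for the interaction, on all 4, with Benjamini-Hochberg adjustment at 0.05. Alternatives were DESeq2 1.42.0, RLE, no filter beyond 1 count, all 20 libraries in 1 fit, sex as a covariate and leaving out libraries. Leaving out DL02 and DT2264, and library totals in place of TMM, were chosen after seeing the data. Levels were CPM over TMM library sizes. Mif was also tested by exact permutation of log2(value + 0.5). The edgeR script was tested on simulated data. Members and lists were chosen with earlier results of these data known. Named genes were Mif, the members called in a comparison and those with a mean of at least 5 TMM CPM in a group; Ccl3, Ccl4, Ccl5, Ccl7, Ccl8 and others outside that rule were added after their values were seen. Library depth limits precision for members under about 1 CPM, and intervals and floors cover counting error only.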

Additional observations from a re-analysis of the deposited data

Results flagged for a closer look

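In 6 of 55 groups of 5 libraries tested over the 16 named members, the highest or the lowest library lay farther from the others than Dixon's criterion allows on the log2(TMM CPM + 0.5) scale. Chance flags about 1 in 20 groups. HB DT2264 was such a library for Ccl6, with 148 TMM CPM against 4.47 to 8.98 in the other HBs on DDDA, and for Cxcl16, with 103 against 21.0 to 28.4. Liver DL02 was for Cxcl1, with 102 against 3.595 to 6.98 in the other livers on DDDA. HB s1799 was for Cxcl9, with 35.4 against 3.70 to 7.27 in the other HBs on standard diet. HB DT3168 was for Ccl27a, with 5.05 against 3.42 to 3.82, and liver c1 for Ccl21a, low at 0.228 against 1.08 to 1.60.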

How the results depend on the processing

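On standard diet the members higher in HBs numbered 11 with DESeq2 (4596 of 18342 genes) and 12 with every gene of at least 1 count (4384 of 22784). With 1 library left out, 7 to 10 members were higher (3658 to 4034 genes) and 4 to 5 lower (3438 to 3687 genes). On DDDA the members higher in HBs numbered 6 with DESeq2 (4292 of 16347) and 6 with every gene of at least 1 count (3808 of 22322). With all 20 libraries in 1 fit they numbered 7 (4264 of 14502), and with 1 library left out 2 to 4 (3145 to 3609 genes). The members lower on DDDA numbered 4 with DESeq2 (3584 of 16347), with all 20 libraries (3679 of 14502) and without DT2264 and DT2277 (3141 of 13600), Ccl19 each time among them. They numbered 1 with library totals (1152 of 13415), 1 without DL03 and DT3168 (2645 of 13463), and 1 to 2 with 1 library left out (2798 to 3164 genes). For diet in HBs, DESeq2 called 1 member higher (337 of 17085 genes) and the fit of all 20 libraries 2, Ccl9 and Mif (367 of 14502). Without DL02 and DT2264, 1 member was lower (63 of 14237). Leaving out 1 library gave 0 to 1 lower (1 to 63 genes) and 0 higher (0 to 60 genes). For diet in livers, DESeq2 called 1 lower (784 of 16033). Sex as a covariate gave 1 higher, Cxcl10 (857 of 12803), and 1 lower, Ccl24 (583 of 12803). Leaving out 1 library gave 0 to 1 lower (158 to 378 genes). No member was called in the interaction under any alternative run, but few genes of the whole table were either. DESeq2 called 7 higher and 4 lower of 23355 genes, and the fit without DT2264 and DT2277 called 10 and 15 of 14836. Every other alternative called 0 or 1 gene.

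The log2 difference of Mif between HBs and livers turned with library totals in edgeR (0.015 on standard diet and 0.63 on DDDA), as did Ccl9 on DDDA (0.16). On DDDA the Mif value also turned with sex as a covariate (0.044), without DL03 and DT3168 (0.035), and, from −0.36 without DT2264 to 0.0443, without DL04 (0.037), DL05 (0.022), DT3168 (0.0443) or DT2277 (0.0015). In the permutation test it was −0.027 in RPKM, 0.18 in TPM and −0.0028 over library totals on standard diet, and 0.55, 0.72 and 0.53 on DDDA. With 1 library left out it ran from −0.80 to −0.59 on standard diet, −0.37 to −0.03 on DDDA, 0.62 to 0.96 for diet in HBs and 0.21 to 0.43 for diet in livers. The scaling moved it because TMM and total counts set a different zero; the cause of the other changes was not tested. No paired analysis was possible because the groups share no replicate numbers. Members under about 1 CPM rest on few counts.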
